A study of Rattus norvegicus with 6 samples.

Results

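Fmo1, Fmo2, Fmo4 and Fmo5 encode flavin-containing monooxygenases (FMOs), and their transcripts were measured in rat liver after injury. These 4 genes were followed among the 20104 genes of the deposited tables, found by their symbols. They were chosen by their measured levels in the contrast of the 2 dressings, library by library, so differences between dressings in these genes are given as descriptions without a test. Rattus norvegicus livers had been injured and covered with AKOC (3 libraries) or with Quik-clot, the control dressing (3 libraries), and were collected on day 14. AKOC is not spelled out in the labels; the series concerns kaolin scales anchored on cotton, and Quik-clot is a commercial haemostatic dressing. All 6 libraries came from injured liver, and no uninjured liver is among these samples. The labels state neither strain nor sex nor age, and nothing in the labels says whether the libraries of a dressing came from separate animals.

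FMOs sit in the membrane of the endoplasmic reticulum. Each carries the flavin cofactor FAD, takes electrons from NADPH, and uses molecular oxygen to place an oxygen atom on a soft nucleophile, usually a nitrogen or sulfur atom of a drug, a dietary amine or a thioether. Unlike cytochrome P450 enzymes they need no separate reductase. FMO1 is a broad drug oxidase that also acts on hypotaurine, FMO2 is best known from lung, FMO4 is little characterised, and FMO5 inserts oxygen next to carbonyl groups and is abundant in liver.

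In the RefSeq gene table (GRCr8 assembly) Fmo4, Fmo1 and Fmo2 lie near each other on chromosome 13, and Fmo5 lies apart on chromosome 2. The authors' counts were made on the mRatBN7.2 build, so no GRCr8 position of a gene is used for the values. The RefSeq promoter table holds 3 of the 4 members. The 250 bases before their starts are shown because the neighbours Fmo1 and Fmo2 had different library patterns and Fmo5 another. The windows are chr13:77747667-77747916 (minus strand), chr13:77777535-77777784 (minus strand) and chr2:187910714-187910963 (plus strand) in GRCr8. Capitals mark the motif matches found by search.
Fmo1: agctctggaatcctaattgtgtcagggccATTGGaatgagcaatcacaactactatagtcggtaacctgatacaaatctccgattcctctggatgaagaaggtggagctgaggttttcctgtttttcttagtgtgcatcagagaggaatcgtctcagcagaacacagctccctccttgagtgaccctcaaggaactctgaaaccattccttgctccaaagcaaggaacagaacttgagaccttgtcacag
Fmo2: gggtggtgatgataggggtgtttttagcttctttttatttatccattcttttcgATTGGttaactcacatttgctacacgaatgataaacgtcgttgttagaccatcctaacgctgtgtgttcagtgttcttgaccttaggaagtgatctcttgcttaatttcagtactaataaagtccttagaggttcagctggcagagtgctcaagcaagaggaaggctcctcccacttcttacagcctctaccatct
Fmo5: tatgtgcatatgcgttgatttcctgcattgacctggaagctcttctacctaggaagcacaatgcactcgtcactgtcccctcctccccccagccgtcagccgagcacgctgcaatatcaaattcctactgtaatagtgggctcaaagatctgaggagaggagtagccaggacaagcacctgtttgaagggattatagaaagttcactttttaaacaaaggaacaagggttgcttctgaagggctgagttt
The capitals are the CCAAT box, read on either strand, 221 bases before the start of Fmo1 and 196 bases before that of Fmo2; 34% of 33469 promoter windows of this length hold one. The TATA box (TATAAA), the E-box (CACGTG), the D-box (TTATGTAA), the STAT5 site (TTCNNNGAA), an HNF1 motif (GTTAAT) and the HNF6 core (ATTGAT), searched on both strands, had 0 matches in each of the 3 windows. These motifs occur in 12.9%, 5.59%, 0.828%, 7.67%, 6.45% and 7.1% of all windows. The windows held 46.4%, 42% and 47.6% G and C bases for Fmo1, Fmo2 and Fmo5.

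The members differed widely in FPKM, fragments scaled to transcript length and library size, the scale on which genes can be compared. The highest member, Fmo5, was 66.01 (Quik-clot replicate 1) to 592 times (AKOC replicate 1) the lowest, Fmo2, within a library. Fmo5 was the most abundant member in all 6 libraries, with 175, 143 and 174 FPKM in Quik-clot replicates 1, 2 and 3 and 206, 99.5 and 71.4 FPKM in AKOC replicates 1, 2 and 3. It ranked between 321 and 721 among the 20104 genes. Fmo1 followed, with 53.6, 61.8 and 32.4 FPKM under Quik-clot and 65.6, 22.6 and 38.2 FPKM under AKOC. The level of Fmo5 was 1.87 to 5.38 times that of Fmo1 within a library, so the order of this pair held in each of them.

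Fmo4 was lower, at 5.27, 5.06 and 2.85 FPKM under Quik-clot and 5.08, 3.62 and 3.38 FPKM under AKOC, which placed it between ranks 5402 and 6690. Fmo1 exceeded it 6.24-fold to 12.9-fold. Fmo2 was the lowest member in each library, at 2.66, 0.425 and 1.99 FPKM under Quik-clot and 0.348, 0.431 and 0.393 FPKM under AKOC. It came nearest to Fmo4 in Quik-clot replicates 1 and 3, where Fmo4 was 1.98 and 1.43 times as high, against 8.41 to 14.6 times in the other libraries. The order Fmo5, Fmo1, Fmo4, Fmo2 was thus the same in all 6 libraries.

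**Figure D1:**
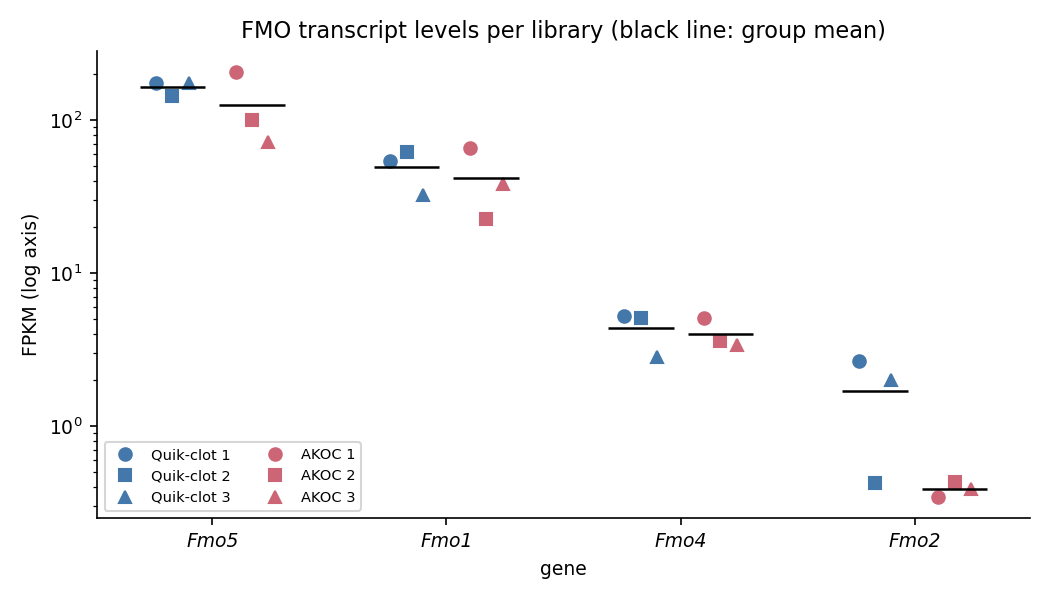
FPKM on a log axis for the 4 members, 1 point per library, Quik-clot in blue and AKOC in red, with the group mean as a black line. Fmo5 lies highest, and Fmo2 splits within Quik-clot, with replicates 1 and 3 at 2.66 and 1.99 FPKM and replicate 2 at 0.425 FPKM beside the AKOC libraries.

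The FPKM of the 4 members summed to 237, 210 and 212 under Quik-clot and to 277, 126 and 113 under AKOC. AKOC replicate 1 had the highest sum and AKOC replicates 2 and 3 the lowest. Fmo5 held most of the sum in each library, with shares of 74.02%, 67.97% and 82.4% under Quik-clot and 74.3%, 78.9% and 63.01% under AKOC. The share of Fmo1 was smallest, at 15.3%, in Quik-clot replicate 3, where that of Fmo5 was largest, and largest, at 33.7%, in AKOC replicate 3, where that of Fmo5 was smallest; shares of 1 sum are not independent. The remaining members were minor, with Fmo4 at 1.35% to 2.98% and Fmo2 at 0.126% to 1.12%. Fmo6, of the same family, had 0, 60 and 6 counts under Quik-clot and 6, 0 and 16 counts under AKOC and was below the expression filter.

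**Figure D2:**
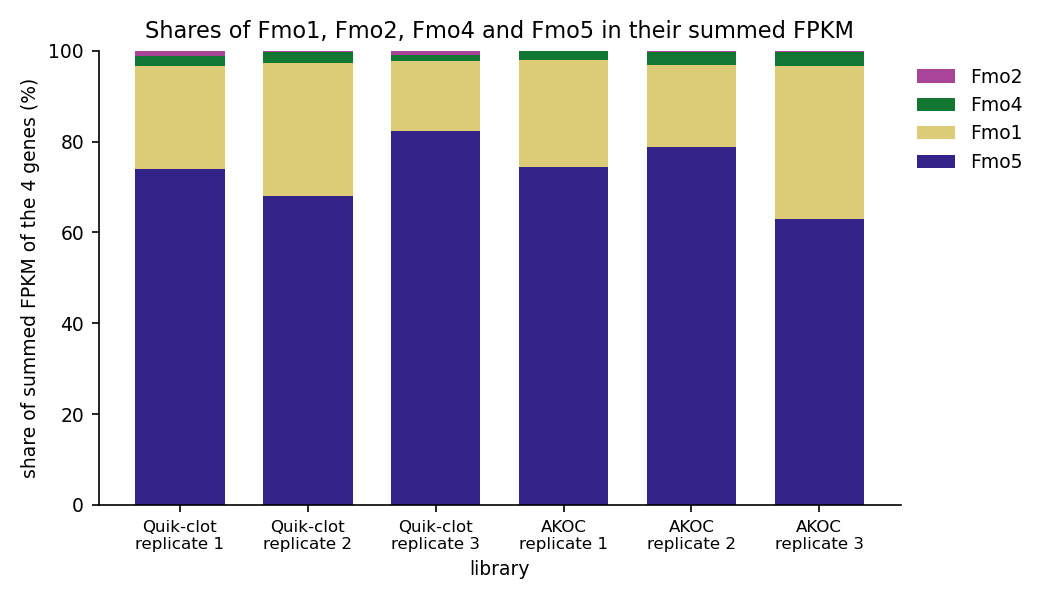
Stacked bars give the share of each of the 4 members in their summed FPKM in a library, in percent. Fmo5 makes up most of each bar, from 63.01% in AKOC replicate 3 to 82.4% in Quik-clot replicate 3, and Fmo1 most of the rest.

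For comparison between libraries, counts were scaled to CPM (counts per 1000000 after trimmed-mean, or TMM, scaling). All 4 members passed the filter on low counts. In the edgeR quasi-likelihood test over 13872 genes, 0% were called at an adjusted p under 0.05 in either direction. At an unadjusted p under 0.05 there were 1731 genes (12.5%), and DESeq2 called 280 of 13837 genes (2.02%). The dressings did not overlap in CPM for 18.4% of genes tested, and for 0 of the 4 members. All 4 members had a log2 fold change (AKOC over Quik-clot) below 0, with a median of -0.26, where the median of all genes tested was -0.01 and 51.98% were below 0; nothing is read from this, since the contrast was used to choose them. In bulk tissue, fewer cells of a type and less RNA per cell cannot be told apart.

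Fmo1 stood at 104, 126 and 78.1 CPM under Quik-clot and at 132, 54.4 and 87.5 CPM under AKOC. The highest and the lowest library were both AKOC, so the range under AKOC enclosed the range under Quik-clot. Means were 91.4 ± 39.2 CPM under AKOC and 103 ± 23.8 CPM under Quik-clot (SD, n = 3 each), with a log2 fold change of -0.17 ± 0.32 (SE). The sign depended on single libraries, at 0.095 with AKOC replicate 2 left out and 0.0038 with Quik-clot replicate 2 left out. The SD of log2 CPM within AKOC was 0.64, above that of 89.99% of genes tested, whose median was 0.20.

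The libraries with the least Fmo1 were those with the highest summed level of 15 positive acute phase genes. Apart from the signalling suppressor gene Socs3, these encode secreted liver proteins that increase in inflammation. The sum was 102887 CPM in AKOC replicate 2 and 138248 CPM in Quik-clot replicate 3, against 48077 to 62500 CPM in the other 4 libraries. The acid glycoprotein gene Orm1, 1 of the 15, had 8359 and 11304 CPM in those libraries and 791 to 1811 CPM elsewhere. Not all of the 15 shared this pattern. Hamp had 63.8 and 56.7 CPM in those libraries, 822 and 460 CPM in Quik-clot replicates 1 and 2, and 177 and 27.2 CPM in AKOC replicates 1 and 3. Fmo1 was also below its Quik-clot mean in AKOC replicate 3, where the acute phase sum was 54290 CPM. The part of the acute phase level in the Fmo1 values was not tested.

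Fmo2 had the largest difference between the dressings, and it came from a pair of libraries. Its counts were 220, 35 and 165 under Quik-clot and 29, 36 and 32 under AKOC, which gave 4.79, 0.802 and 4.46 CPM and 0.651, 0.961 and 0.834 CPM. Quik-clot replicates 1 and 3 were high, while Quik-clot replicate 2 lay inside the AKOC range. The means were 0.816 ± 0.156 CPM under AKOC and 3.35 ± 2.21 CPM under Quik-clot, and the log2 fold change was -2.04 ± 0.62. Leaving out a library moved it between -2.50 (without Quik-clot replicate 2) and -1.68 (without Quik-clot replicate 1). The SD of log2 CPM within Quik-clot was 1.42, above that of 97.9% of genes tested, against 0.27 within AKOC. Counts as low as 29 to 36 carry a large counting error of their own.

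In rat liver the growth hormone pattern, pulsatile in males, sets the level of sex-dependent genes, of which Cyp2c11 is the textbook male gene and Cyp2c12 the female one. The Y-linked transcripts Eif2s3y, Kdm5d and Uty were present in all 6 libraries (9.02 CPM or more), and Xist had 2 counts in Quik-clot replicate 3 and 0 in the others. The libraries high in Fmo2 were those lowest in Cyp2c11, which had 140, 1695 and 118 CPM under Quik-clot and 1766, 767 and 3378 CPM under AKOC. Cyp2c12 had 918, 97.02 and 283 CPM under Quik-clot and 8.69, 17.3 and 74.7 CPM under AKOC, so it was highest where Fmo2 was. All 5 male-pattern genes on the list were in the table, and their summed level was 2127, 10789 and 2238 CPM under Quik-clot and 10471, 5088 and 10191 CPM under AKOC. Cyp3a2, 1 of the 5, had 802, 5764 and 780 CPM under Quik-clot and 4324, 864 and 2547 CPM under AKOC. It was lowest in Quik-clot replicates 1 and 3 but nearly as low in AKOC replicate 2, where Fmo2 was not high. The 3 female-pattern genes summed to 1486, 547 and 775 CPM and to 476, 470 and 467 CPM, nearly all from Cyp2c12 and Cyp2a1. The third of them, A1bg, was below the filter, with 4, 2 and 2 counts under Quik-clot and 2, 25 and 57 counts under AKOC, and so did not share their pattern.

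Markers of stellate cells and fibroblasts, connective tissue cells of the liver, were mixed. Their summed level over 12 genes was lowest where Fmo2 was high, at 183 and 302 CPM in Quik-clot replicates 1 and 3, against 524 CPM in Quik-clot replicate 2 and 657 to 782 CPM under AKOC. Dpt, a dermatopontin gene of fibroblasts, was most of this sum under AKOC and in Quik-clot replicate 2, but not in Quik-clot replicates 1 and 3. It had 73.7, 280.9 and 125 CPM under Quik-clot and 432, 557 and 478 CPM under AKOC. Of the 10 markers tested, 6 had a log2 fold change above 0 and 4 below it, as Fmo2 had: Pi16 (-1.17), Col1a1 (-1.04), Rgs5 (-0.40) and Acta2 (-0.13). The 5 mesothelial markers summed to 8.73 to 18.02 CPM under Quik-clot and 27.5 to 45.5 CPM under AKOC, nearly all from Gpm6a. Msln was below 1 CPM in each library, and Wt1 (3, 4 and 7 against 1, 0 and 1 counts), Lrrn4 (5, 1 and 2 counts against 0 in each AKOC library) and Upk3b (6, 1 and 6 against 7, 2 and 6 counts) were below the filter. The part of the sex-dependent genes and of these cell markers in the Fmo2 values was not tested.

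Fmo4 varied least of the 4 members across all libraries, at 12.2, 12.2 and 8.16 CPM under Quik-clot and 12.2, 10.4 and 9.21 CPM under AKOC. The groups overlapped, with Quik-clot replicate 3 lowest. Means were 10.6 ± 1.51 and 10.9 ± 2.33 CPM for AKOC and Quik-clot, and the log2 fold change was -0.04 ± 0.20. It lay between -0.20 and 0.058 when single libraries were left out, positive without Quik-clot replicate 1, Quik-clot replicate 2 or AKOC replicate 3. Fmo4 and its neighbour Fmo1 had a Pearson r of 0.61 over the 6 libraries, the highest among the member pairs, where Fmo1 and Fmo2 had -0.17; these values are descriptive and the points share library scaling.

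Fmo5 stood at 452, 385 and 558 CPM under Quik-clot and at 551, 318 and 217 CPM under AKOC. AKOC replicates 2 and 3 lay below all Quik-clot libraries, and AKOC replicate 1 lay among them. The means were 362 ± 171 CPM under AKOC and 465 ± 86.96 CPM under Quik-clot, with a log2 fold change of -0.36 ± 0.33. Without AKOC replicate 1 it was -0.80, and without AKOC replicate 3 it was -0.098, negative in both cases. Within AKOC the SD of log2 CPM was 0.68, above that of 91.02% of genes tested, against 0.27 within Quik-clot.

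**Figure D3:**
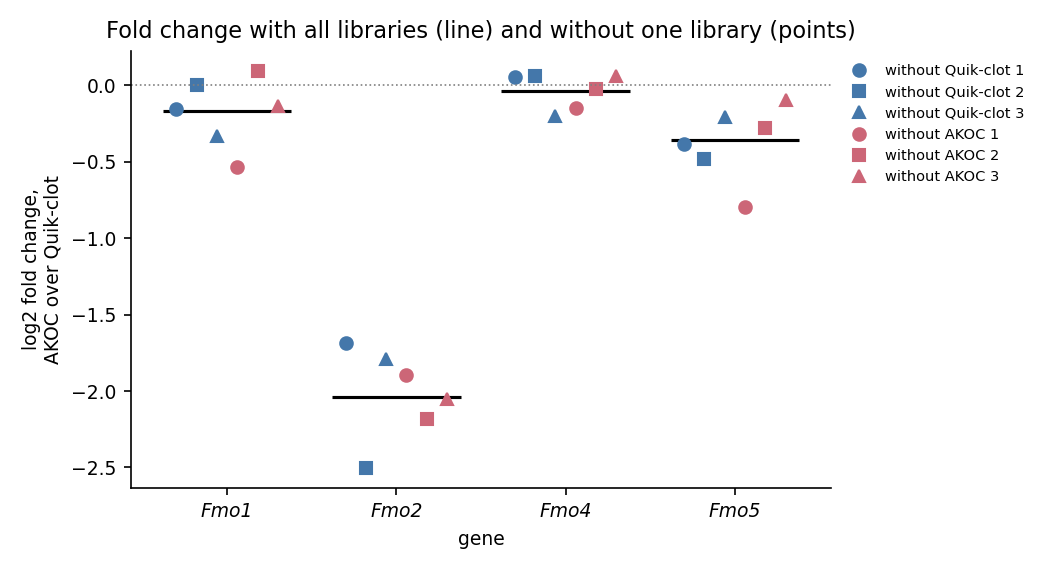
Log2 fold change, AKOC over Quik-clot, with all libraries (black line) and after leaving out 1 library (points). Fmo2 stays between -2.50 and -1.68 and Fmo5 below 0, while Fmo1 and Fmo4 fall on both sides of 0.

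AKOC replicate 1 also lay nearer to Quik-clot than AKOC replicates 2 and 3 did for the clock activator Bmal1 (1 of 12 clock genes tested, of which 5 had a log2 fold change above 0), which had 20.6, 36.7 and 35.8 CPM under AKOC and 6.33 to 9.67 CPM under Quik-clot. The P450 reductase gene Por followed the same order as Fmo5 within AKOC, at 127, 97.05 and 67.3 CPM, with 187 to 288 CPM under Quik-clot. The labels give no hour of collection, and the part of clock state in the Fmo5 values was not tested. Chd1l, a chromatin remodeller gene, overlaps Fmo5 in the GRCr8 gene table, and the strand setting of the counting is not given, so reads from a shared stretch cannot be told apart. Chd1l had 105, 43.3 and 86.9 CPM under Quik-clot and 44.5, 37.8 and 34.2 CPM under AKOC. It was highest in Quik-clot replicates 1 and 3. Quik-clot replicate 3 also had the most Fmo5 by CPM (558), with AKOC replicate 1 close behind (551), where Chd1l had 44.5 CPM. By FPKM Fmo5 was highest in AKOC replicate 1. Another neighbour of Fmo5, Prkab2, a subunit of the energy sensor AMPK, ranged from 1.59 to 3.16 CPM. LOC102555487, which overlaps Fmo4, had 1 count in all.

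**Figure D4:**
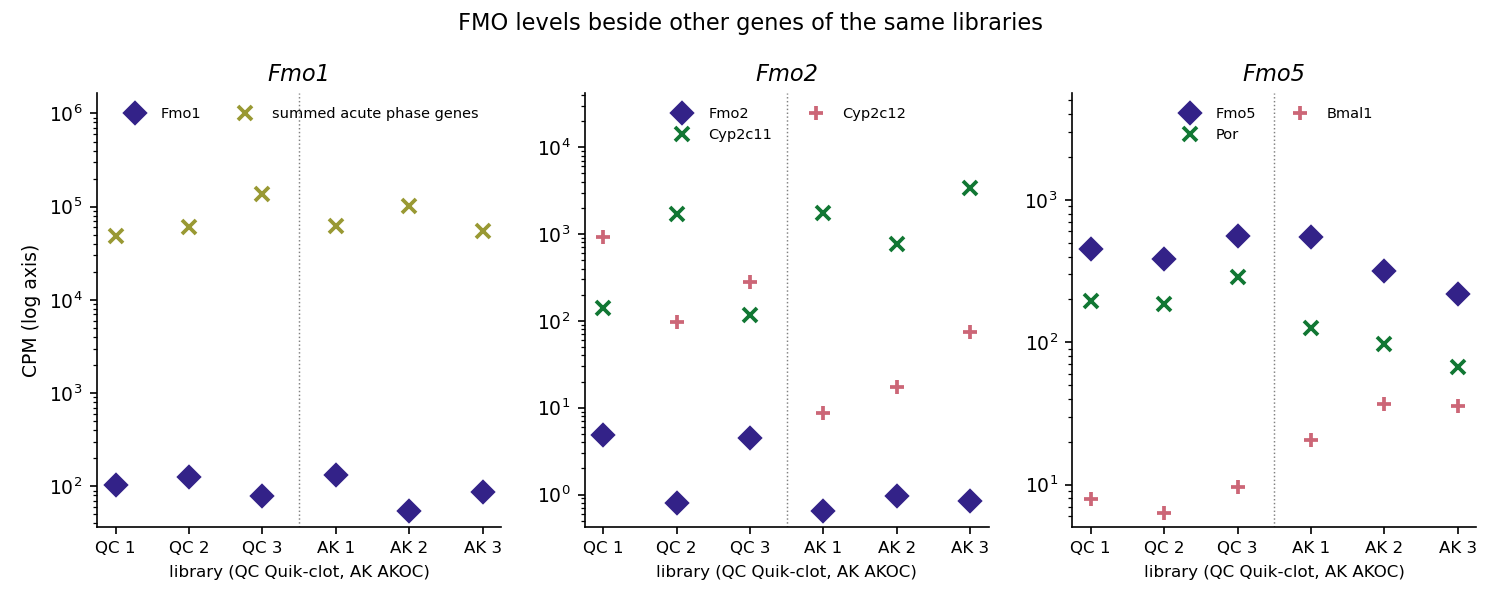
CPM on a log axis in each library for Fmo1 with the summed acute phase genes, Fmo2 with Cyp2c11 and Cyp2c12, and Fmo5 with Por and Bmal1. Fmo2 and Cyp2c12 are highest and Cyp2c11 lowest in Quik-clot replicates 1 and 3, and Fmo5 and Por are lowest in AKOC replicates 2 and 3.

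The genes whose log2 CPM followed a member most closely were ranked by Pearson r over the 6 libraries among 11980 genes with a mean of at least 1 CPM. For Fmo5 they were Atf3, a stress-induced transcription factor (r = 0.997), Cdc42ep1 (0.99), Smarcd1, a chromatin remodelling subunit (0.987), Ccnj (0.986) and Fam167b (0.982). By Spearman rank 4 of the 5 were also among the closest. Atf3 had a mean of 1.33 CPM, near the cut of 1 CPM, as had Zcchc10 (1.35) and RT1-CE13 (1.13) named below. For Fmo2 they were Brpf3 (0.997), Otud1, a deubiquitinase (0.993), the kinase gene Slk (0.993), Nucks1 (0.993) and Tatdn2 (0.992), of which 1 held by rank. For Fmo1, Zcchc10, Zfp518a, Gemin4, Dennd4a and Rraga had r from 0.968 to 0.973, with 2 holding by rank. For Fmo4, Nthl1, a DNA repair glycosylase, Gpkow, Dcxr, C5ar2 and RT1-CE13 had r from 0.96 to 0.983, and 0 held by rank. The lists of the 4 members had no gene in common, and the points share libraries and scaling. The genes that held by rank had a Spearman rho of 1, which any gene with the same order of the 6 libraries reaches. The highest of 11980 values of r over 6 libraries are large whether or not genes are linked, so no shared regulation is read from these lists.

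Genes around the FMO reaction were read from 9 fixed lists with 87 genes tested, and edgeR called 0 higher and 0 lower over all genes. At an unadjusted edgeR p under 0.05 there were 31 of the 87, where the share over all genes was 12.5%. DESeq2 called 11, where its share over all genes was 2.02%. The lists were chosen with earlier results of these data known, so nothing is read from these counts. The background shares of genes whose groups did not overlap were 9.53% higher and 8.84% lower under AKOC. The NADPH supply list, named for the electron donor of FMOs, also holds Tkt, Taldo1 and Pgls, pentose phosphate enzymes that do not form NADPH themselves. It had 8 of 10 positive values and a median log2 fold change of 0.63, with 6 of 10 above Quik-clot without overlap. The negative values were those of Mthfd1 (-0.48 ± 0.21) and H6pd (-0.58 ± 0.27). Transketolase Tkt had 0.89 ± 0.16 (edgeR adjusted p = 0.241), malic enzyme Me1 1.40 ± 0.37 (edgeR adjusted p = 0.301) and Pgd, of the pentose phosphate pathway, 0.88 ± 0.24 (edgeR adjusted p = 0.305). All 3 were called by DESeq2. For Tkt the levels were 98.0, 120 and 108 CPM under Quik-clot and 160, 221 and 225 CPM under AKOC. Genes of riboflavin uptake and FAD synthesis had 2 of 5 positive, a median of -0.12 and 0 without overlap, with Flad1, the FAD synthase, at -0.21 ± 0.12, Slc25a32 at -0.21 ± 0.19 and Slc52a2 at -0.12 ± 0.21.

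Microsomal electron carriers had 3 of 6 positive and a median of -0.01. Cyb5r3, cytochrome b5 reductase, had 0.77 ± 0.13 and Por -1.20 ± 0.27, each without overlap and called by DESeq2 (edgeR adjusted p = 0.234 and 0.281), and Pgrmc1 had 0.23 ± 0.17. Among other flavin-dependent monooxygenases (3 of 6 positive, median 0.02), Coq6 of ubiquinone synthesis had 0.53 ± 0.16, the squalene epoxidase gene Sqle -1.07 ± 0.50 and Mical2 0.54 ± 0.28. Reductases that reverse S- and N-oxidation had 5 of 6 positive and a median of 0.19, with Msra at 0.65 ± 0.15 and Msrb2 at 0.60 ± 0.16, both without overlap, and Msrb1 at 0.18 ± 0.16. Msra was called by DESeq2 and not by edgeR (adjusted p = 0.281).

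Of the substrate pathways, the taurine list (4 of 10 positive, median -0.01) held Gadl1, a cysteine sulfinate decarboxylase, at 1.13, 0.871 and 0.811 CPM under Quik-clot and 3.03, 6.14 and 6.36 CPM under AKOC. Its log2 fold change was 2.46 ± 0.34 (edgeR adjusted p = 0.216); DESeq2 called it, and edgeR did without AKOC replicate 1 (adjusted p = 0.0388, within a range of 7.19e-08 to 0.558 over the alternatives). Csad, named for the same activity and far higher in level, had means of 146 CPM under AKOC and 147 CPM under Quik-clot, at -0.01 ± 0.24. The taurine and GABA carrier gene Slc6a13 had -0.64 ± 0.19 and Cth 0.82 ± 0.27. Choline and methylamine genes had 9 of 11 positive and a median of 0.24, among them Dmgdh, which demethylates dimethylglycine, at 0.41 ± 0.13, the carnitine carrier Slc22a5 at -1.04 ± 0.36 and Pemt at 0.27 ± 0.099.

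Transcription factors linked to hepatic FMO genes had 5 of 15 positive, a median of -0.12 and 4 below Quik-clot without overlap. The xenobiotic receptor Nr1i2 had -0.66 ± 0.18, the hepatocyte factor Hnf4a -0.41 ± 0.13 and Ppara -0.63 ± 0.21 (edgeR adjusted p = 0.306, 0.334 and 0.345). The drug-oxidising P450 genes had 10 of 18 positive and a median of 0.08, with Cyp2c7 at 1.68 ± 0.34, Cyp3a62 at -1.48 ± 0.41 and Cyp2c12 at -3.69 ± 1.06. DESeq2 called Cyp2c7, Cyp3a62, Cyp2b1 and Cyp2c13 of this list, and reads of the Cyp2c genes may have been split between near-identical copies.

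**Figure D5:**
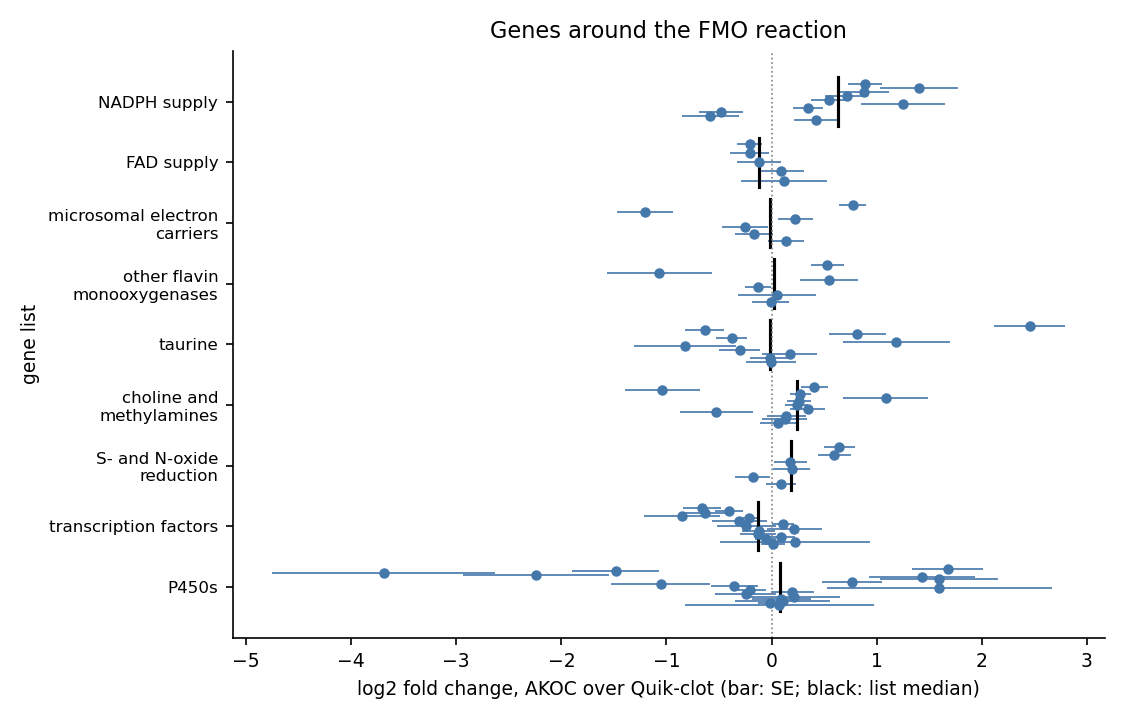
Log2 fold change, AKOC over Quik-clot, of each tested gene of the 9 lists (points, bars give the SE), with the list median in black. The NADPH supply median of 0.63 lies farthest from 0, and single genes such as Gadl1 and Cyp2c12 lie far from their list medians.

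The 8 hepatocyte markers summed to 108869 to 158277 CPM under Quik-clot and to 121190 to 184201 CPM under AKOC, with albumin at 7.02% to 11.7% of counts. Kupffer cell and macrophage markers (8 genes) summed to 830 to 1439 and 702 to 1033 CPM, sinusoidal endothelial markers (8 genes) to 566 to 675 and 505 to 587 CPM, and cholangiocyte markers (6 genes) to 14.1 to 25.3 and 15.7 to 20.7 CPM. T and NK cell markers (7 genes) were highest in Quik-clot replicate 2, at 37.1 CPM against 9.88 to 12.9 CPM. Neutrophil markers (6 genes) were highest in Quik-clot replicate 3, at 105 CPM against 6.99 to 46.7 CPM, where Mpo and Elane had at most 3 counts in any library. B and plasma cell markers (5 genes) summed to 79.7 to 99.9 and 64.5 to 113 CPM, and red cell markers (5 genes) to 42.2 to 943 and 724 to 1508 CPM. Total counts ran from 40402312 to 41455378, and no pair of libraries agreed within sampling noise (chi-square per degree of freedom of 72.3 or more).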

How the data were processed

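RNA of injured rat liver was sequenced in 6 libraries, 3 per dressing, with groups and replicate numbers taken from the labels. The authors deposited whole-number read counts per gene without normalization. Dividing each count by gene length and library total returned the FPKM the authors deposited, with a largest relative error of 6.2e-05%. The tools fastp, HISAT2 and HTSeq and the mRatBN7.2 build come from the submitters' processing notes; versions, annotation and strand setting are not stated in the sources.

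Counts were tested across all genes with the edgeR 4.0.16 quasi-likelihood test (R 4.3.3; filterByExpr with a minimum count of 10 and minimum total of 15; TMM, with factors from 0.902 to 1.12; two-sided; Benjamini-Hochberg; threshold 0.05). SE is the fold change divided by the square root of F, and log2 CPM used a prior count of 2. Alternatives were DESeq2 1.42.0, limma-voom and limma-trend on log2 FPKM (limma 3.58.1; pseudocounts 1 and 0.1; filter of 0.1 FPKM in 3 libraries), other scalings and filters, a replicate block and leaving out each library; the legacy quasi-likelihood method was added after seeing the data. The test was also run on counts simulated with the spread fitted to these data. Such counts cannot check whether that fit holds, and no outcome of that run is used here. P-values measure the spread between these libraries, and the labels do not say whether that spread is between separate animals.

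The members and lists were chosen with earlier results of these data known. Named were the members, other FMO rows (not all are reported here), called list members or else the 3 of smallest unadjusted p, the 5 genes most like each member, measured neighbours, and marker, clock, acute phase and sex-pattern genes that move with a member. The sex-linked genes, the promoter motifs, Orm1, Hamp, Csad, the single cell type markers and the genes set beside each member were chosen after their values were seen. So were Taldo1, Pgls, Mthfd1 and H6pd. Zonation lists were fixed but are not used here: 3 of 10 pericentral and 2 of 9 periportal genes were positive.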

Additional observations from a re-analysis of the deposited data

How the results depend on the processing

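Calls over all genes depended on the method. The edgeR test called 0 genes with all libraries, and DESeq2 called 280 of 13837 (2.02%). Leaving out a library gave 0 to 18 calls, with 18 without Quik-clot replicate 2, 10 without AKOC replicate 1 and 2 without AKOC replicate 2. Of the 87 pathway genes tested, 0 were called with all libraries, 11 by DESeq2, and 0 to 1 when a library was left out. The Fmo2 log2 fold change of -2.04 was -0.85 on log2(FPKM + 1), with or without a filter on low values, a scale that understates changes of low genes. Fmo2 kept its sign in 16 alternatives (the filter of 1 CPM in 3 libraries leaves it out) and Fmo5 in 17, while Fmo1 was positive in 2 of 17 and Fmo4 in 3 of 17, all of them with a library left out. No sign that replicate numbers pair the samples was seen. Same-numbered libraries deviated from their group means with correlations of -0.07, -0.08 and -0.20, and differently numbered ones with -0.10 to 0.17. With 3 libraries per dressing these values cannot exclude pairing. With the replicate block edgeR called 1 gene, Pnpla5, and 0 pathway genes. Fmo2 rests on 29 to 220 counts, the lowest depth among the members.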
